A study of Mus musculus with 8 samples.

Results

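The genes described are those of the zona pellucida, the glycoprotein coat of the egg, and of proteins that the oocyte secretes or releases: Zp1, Zp2, Zp3, Gdf9, Bmp15, Oosp1, Oosp2, Astl and Plat. They were chosen by symbol, and all 9 had a row among the 13101 genes of the expression table. Polyadenylated RNA was measured in 8 pools of 2-cell mouse embryos, each made of 12 to 18 embryos, all of the C57BL/6 strain background and from timed matings. In 4 pools (Dux KO) the embryos lacked Dux, a homeobox transcription factor of the early embryo, and 4 pools were wild type (WT). The labels give neither the genotype of the mothers nor whether pools had different parents, so that p-values rest on the spread from pool to pool, which may be technical. Oocytes, zygotes and later embryos were not analysed here, so the values are levels at 1 stage and not rates of clearance.

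The zona pellucida is assembled from ZP1, ZP2 and ZP3, which the growing oocyte makes and secretes. ZP2 and ZP3 form filaments and ZP1 links them; after fertilization ovastacin, the protease encoded by Astl, is released from cortical granules and cleaves ZP2, which blocks further sperm. GDF9 and BMP15 are ligands of the transforming growth factor beta family by which the oocyte acts on the granulosa and cumulus cells around it. The transcripts are made in the oocyte, and maternal transcripts of this kind are broken down around the time at which the embryo starts its own transcription.

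The pools held 12343369 to 14548526 reads over all genes, as recovered from the deposited values, and every pair of pools within a group was further apart than sampling alone gives (chi-square per degree of freedom 13.8 to 117). MERVL-int, an endogenous retrovirus that DUX activates, stood at 11360 to 16381 FPM (the authors' scaled fragments) in WT, against 4548 to 6050 FPM in Dux KO. Dux itself was not analysed here. Of 14 markers of the 2-cell stage, 12 had a row, with a summed level of 223 to 385 FPKM in WT and 238 to 379 FPKM in Dux KO. None of these 12 rose and 4 fell, where 15.5% of all tested genes rose and 18.1% fell. Among the 4 were Gm8300, Zscan4f and Zscan4a, with log2 fold changes of -1.15, -0.94 and -0.77. The 4 became 0 with equal totals of reads, where genes called lower overall dropped from 2249 to 1380. They became 0, 1, 2 and 2 when WT replicate 2, WT replicate 1, Dux KO replicate 1 or Dux KO replicate 4 was left out. Over all genes 1929, 1824, 1426 and 2133 were then called lower. Without Dux KO replicates 1 and 2, or 3 and 4, they became 0. They became 2 with quantile normalization and 3 by edgeR, and stayed 4 with the replicate block and by DESeq2. In these bulk pools fewer cells of a type and less RNA per cell cannot be told apart.

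At the 2-cell stage 1 member fell in Dux KO, 2 rose and 6 did not pass the test. Zp3 fell to 0.462 of its WT mean, while Bmp15 rose 2.57-fold and Oosp1 2.08-fold. Zp1 and Zp2, the other zona genes, differed from WT by less than the spread between pools. The test was limma on log2(FPKM + 1), where FPKM is the authors' scaled fragments per kilobase of exon, and a gene was called at a Benjamini-Hochberg adjusted p under 0.05 over all 12434 genes tested. Of these genes 33.6% were called, 15.5% as higher and 18.1% as lower in Dux KO. The 3 called of 9 members are close to that share, but it was not matched to the levels of the members. Raising the minimum from 0.5 to 5 FPKM took out Astl and Plat alone of the members, and 3 members were still called. Over all genes left by that cut, 1032 were called higher and 1880 lower, so falls outnumbered rises more strongly there. The deposited values were not scaled to equal totals: scaled reads summed to 13288726 to 14874917 in WT and to 12120645 to 12932701 in Dux KO. With every pool set to an equal total, the median of all genes moved up by 0.119 on the log2 scale, and 2675 genes were called higher and 1380 lower, where 1933 and 2249 were as deposited. On that scaling Zp3 was at -0.97, Bmp15 at 1.495 and Oosp1 at 1.13 (limma adjusted p = 0.00576, 0.00359 and 0.0203), and Gdf9 passed at 0.54 (adjusted p = 0.0318), so that 4 members were called. The median log2 fold change of the members was 0.38, against -0.03 over all genes tested and -0.18 over those left by the 5 FPKM minimum. Members whose groups of pools did not overlap numbered 4, 3 of them higher and 1 lower in Dux KO. Over all tested genes 33.1% did not overlap, 15.0% being higher and 18.1% lower.

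**Figure D1:**
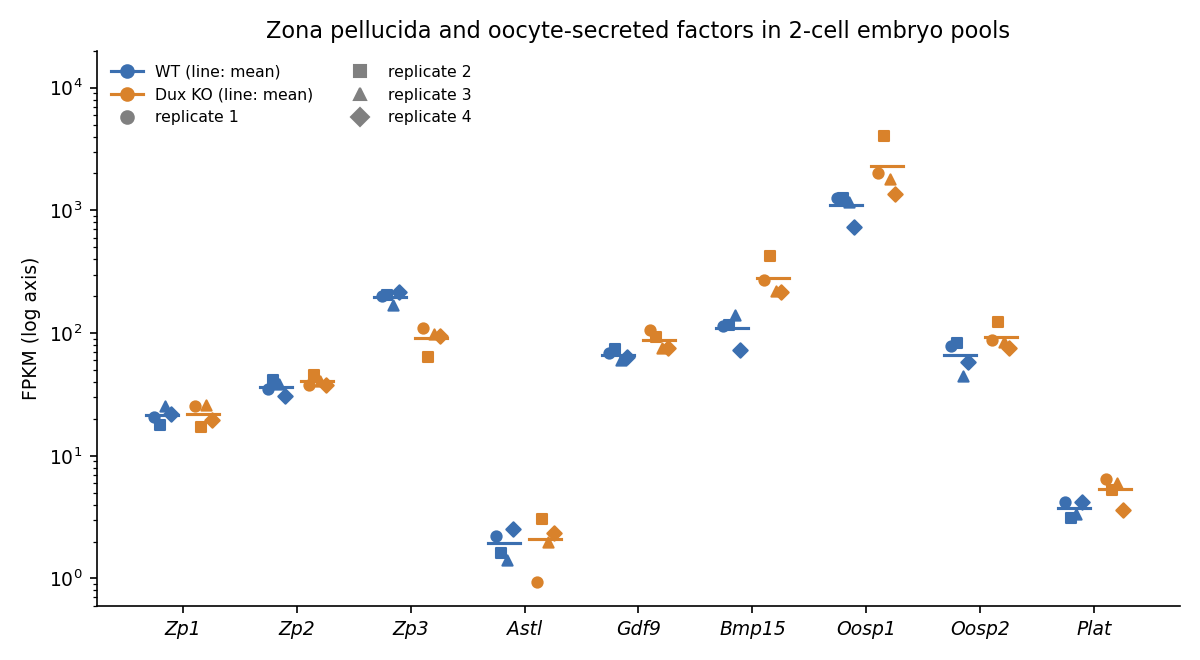
Level of each gene (FPKM, log axis) in the 4 WT pools (blue) and the 4 Dux KO pools (orange); marker shapes are replicate numbers and lines are means. Zp3 lies lower in all 4 Dux KO pools, Gdf9, Bmp15 and Oosp1 lie higher in all 4, and the other 5 genes overlap between the groups.

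Transcripts of all 9 members were still present in all 8 pools, over a wide range of levels. In WT the order by mean FPKM was Oosp1, Zp3, Bmp15, Gdf9, Oosp2, Zp2, Zp1, Plat and Astl. Oosp1 stood above 99.8% of all genes of the table, Zp3 above 98.1% and Bmp15 above 95.9%, in a table that holds no gene with a mean count under 25. Zp1 and Zp2 stood above 79.97% and 87.1% of genes, Plat above 44.4% and Astl above 30.4%. Neighbours in that order had separate ranges over the 4 WT pools, except that Bmp15 overlapped with Gdf9, and Gdf9 with Oosp2. In Dux KO the order was Oosp1, Bmp15, Oosp2, Zp3, Gdf9, Zp2, Zp1, Plat and Astl. There Oosp2, Zp3 and Gdf9, with means of 92.9, 91.5 and 87.9 FPKM, overlapped with their neighbours and cannot be put in order. Zp3 thus went from the second place in WT to a shared place below Bmp15 in Dux KO.

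The proximal promoters of Zp3, Bmp15 and Oosp1, the 3 members that passed, are shown because these genes are transcribed in the oocyte, where FIGLA, a basic helix-loop-helix factor, is known to act on zona genes through E-boxes. RefSeq promoter windows (250 bases before to 50 after the start, GRCm38.p6) were found for 5 of the 9 members. Capitals mark the E-box CANNTG, which reads the same on both strands. The windows are chr5:135979855-135980154 (forward strand) for Zp3, chrX:6320675-6320974 (reverse strand) for Bmp15 and chr19:11691002-11691301 (reverse strand) for Oosp1.
Zp3: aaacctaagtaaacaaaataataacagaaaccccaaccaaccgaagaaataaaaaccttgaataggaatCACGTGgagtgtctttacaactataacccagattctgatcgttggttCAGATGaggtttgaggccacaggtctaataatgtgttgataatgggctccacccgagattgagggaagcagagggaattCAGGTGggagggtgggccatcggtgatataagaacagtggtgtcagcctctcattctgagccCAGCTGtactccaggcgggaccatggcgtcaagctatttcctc
Bmp15: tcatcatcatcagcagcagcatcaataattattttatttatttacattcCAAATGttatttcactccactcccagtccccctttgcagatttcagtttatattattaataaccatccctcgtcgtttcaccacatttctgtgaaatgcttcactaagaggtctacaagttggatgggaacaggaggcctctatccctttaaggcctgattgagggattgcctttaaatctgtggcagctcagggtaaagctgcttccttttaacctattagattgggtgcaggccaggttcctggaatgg
Oosp1: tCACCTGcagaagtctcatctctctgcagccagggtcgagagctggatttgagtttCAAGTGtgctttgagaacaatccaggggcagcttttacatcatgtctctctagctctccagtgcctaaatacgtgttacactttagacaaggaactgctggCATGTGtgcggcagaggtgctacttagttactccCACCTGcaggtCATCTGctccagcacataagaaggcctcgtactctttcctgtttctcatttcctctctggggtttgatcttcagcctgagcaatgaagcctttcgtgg
The Zp3 window held 4 E-boxes, that of Oosp1 5 and that of Bmp15 1. Of all 32851 promoter windows of this length 72.3% held at least 1 and 6.5% at least 4. Zp3, which fell, and Oosp1, which rose, are thus near each other in this count, while Bmp15, which also rose, held fewer. Among members not called, the window of Oosp2 held 1 and those of Astl 0 and 3. Whether the count goes with the change was not tested. A match is a description of these letters and shows no binding.

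Zp3 encodes the zona glycoprotein that pairs with ZP2 in the filaments. It lies on the forward strand of chromosome 5 at 135980099 to 135988624 (GRCm38), with 8 exon blocks and 1323 exonic bases. Its level was 199.7, 205, 170.0 and 217 FPKM in WT replicates 1 to 4. It was 110.4, 63.5, 97.4 and 94.6 FPKM in Dux KO replicates 1 to 4. All 4 Dux KO pools lay below the lowest WT pool, and Dux KO replicate 2 was the lowest of the 8. The means were 198 ± 20.03 and 91.5 ± 19.9 FPKM (SD, n = 4), resting on 1322 to 3785 reads per pool. This was a log2 fold change of -1.13 (SE 0.18; limma adjusted p = 0.00297), with a 95% interval of -1.52 to -0.73. The exact two-sided permutation p was 0.0286, the smallest that 4 against 4 pools can give. For Zp3 the authors' deposited table gives a log2 fold change of -1.11 and an adjusted p of 9.48e-07. In all 21 alternatives run for Zp3 it stayed called and lower, with log2 fold changes of -1.23 to -0.88.

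Zp2 encodes the zona protein that ovastacin cleaves, and lies on chromosome 7 at 120126772 to 120145291 on the reverse strand. Its level was 34.7, 41.4, 38.3 and 30.4 FPKM in WT replicates 1 to 4 and 37.6, 45.7, 40.7 and 37.4 FPKM in Dux KO replicates 1 to 4. Dux KO replicate 2 alone was above the highest WT pool, and none was below the lowest. Zp2 differed by 0.16 on the log2 scale (95% interval -0.16 to 0.48, limma adjusted p = 0.417). Zp1, which encodes the cross-linking zona protein, lies on chromosome 19 at 10914287 to 10920632 on the reverse strand. In WT replicates 1 to 4 it stood at 20.8, 17.8, 25.4 and 21.9 FPKM, and in Dux KO replicates 1 to 4 at 25.5, 17.1, 25.9 and 19.5 FPKM. The pools of Zp1 were mixed in order, and differed by 0.03 on the log2 scale (95% interval -0.36 to 0.41, limma adjusted p = 0.918). The interval of Zp1 does not reach that of Zp3.

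The proportions of the zona transcripts within a pool differed between the groups. The ratio of Zp2 to Zp3 was 0.174, 0.202, 0.226 and 0.14 in WT replicates 1 to 4 and 0.341, 0.72, 0.418 and 0.395 in Dux KO replicates 1 to 4. That of Zp1 to Zp3 lay between 0.0868 and 0.149 in WT, and between 0.206 and 0.269 in Dux KO. Neither ratio overlapped between the groups, and neither depends on how the libraries were scaled to each other. Both have Zp3 as denominator, and Zp1 and Zp2 themselves differed little. The ratios thus mostly restate the fall of Zp3 and are not a separate result. Because the groups did not overlap, leaving out 1 pool could not reverse either difference, so that check adds no support. Ratios were described without a test.

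**Figure D2:**
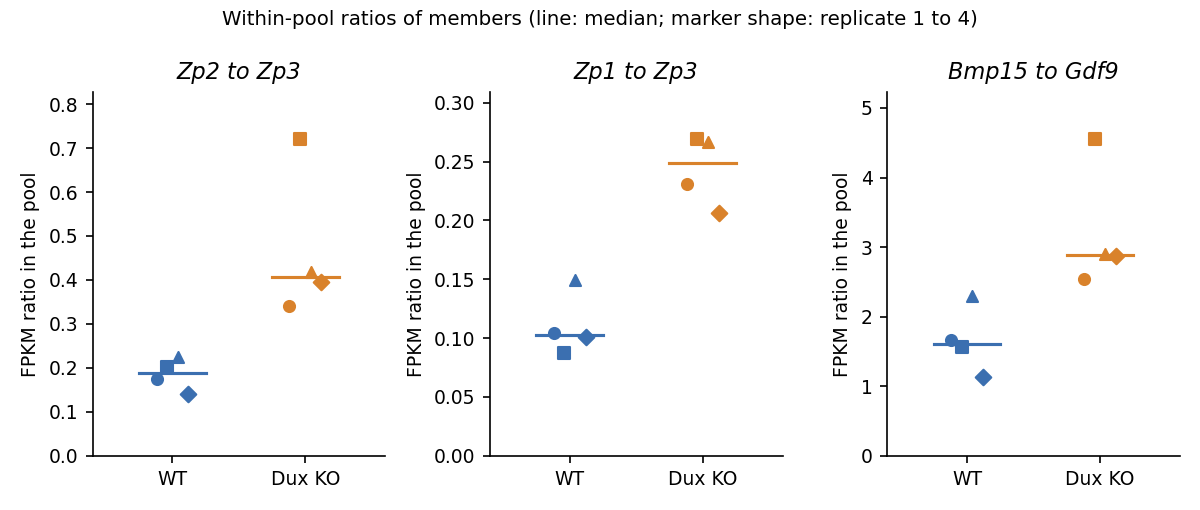
Ratio of FPKM of Zp2 to Zp3, Zp1 to Zp3 and Bmp15 to Gdf9 within each pool, with WT in blue and Dux KO in orange; lines are medians and marker shapes are replicates 1 to 4. In each of the 3 panels all Dux KO pools lie above all WT pools, with medians of 0.188 and 0.407, 0.102 and 0.249, and 1.61 and 2.88.

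Astl encodes ovastacin and lies on chromosome 2 at 127338639 to 127357651 on the forward strand. It was the lowest member, at 2.22, 1.6, 1.43 and 2.52 FPKM in WT replicates 1 to 4 and 0.942, 3.06, 1.98 and 2.35 FPKM in Dux KO replicates 1 to 4. Dux KO held both its lowest and its highest pool, replicates 1 and 2. Astl differed by 0.03 on the log2 scale (95% interval -0.46 to 0.53, limma adjusted p = 0.917). Astl rested on 35 to 123 reads per pool, the fewest of the members, and changes within that interval were not detectable. At this low level the log2(FPKM + 1) scale understates folds, so the interval is wider in terms of FPKM.

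Bmp15, on the X chromosome at 6314107 to 6320721 (GRCm38, reverse strand), has 2 exon blocks and 3060 exonic bases. It stood at 113, 115, 139 and 72.5 FPKM in WT replicates 1 to 4. In Dux KO replicates 1 to 4 it stood at 269.6, 426, 219.6 and 218 FPKM. Every Dux KO pool was above the highest WT pool, Dux KO replicate 2 being the highest and WT replicate 4 the lowest of the 8. The means were 110.2 ± 27.7 and 283 ± 98.2 FPKM (SD, n = 4), from 2923 to 20501 reads per pool. Bmp15 had a log2 fold change of 1.34 (SE 0.25, 95% interval 0.79 to 1.88, limma adjusted p = 0.00458; exact two-sided permutation p = 0.0286). In the authors' deposited table it was 1.36, with an adjusted p of 3.50e-06. All 21 alternatives run for Bmp15 kept it higher and called, at 1.02 to 1.65. The lowest value came from leaving out Dux KO replicates 1 and 2 together (limma adjusted p = 0.0377).

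Gdf9, the partner ligand of BMP15, lies on chromosome 11 at 53431023 to 53437904 on the forward strand. Its level was 68.4, 73.8, 60.7 and 63.8 FPKM in WT replicates 1 to 4 and 106, 93.7, 75.9 and 75.8 FPKM in Dux KO replicates 1 to 4. The groups did not overlap, but the gap between WT replicate 2 and Dux KO replicate 4 was small beside the spread within Dux KO. The means were 66.7 ± 5.68 and 87.9 ± 14.8 FPKM (SD, n = 4). Gdf9 differed by 0.38 on the log2 scale (SE 0.15, 95% interval 0.04 to 0.72; exact two-sided permutation p = 0.0286). It did not pass over all genes tested with limma (adjusted p = 0.0746). Gdf9 passed in 5 of 21 alternatives: equal totals, quantile normalization, the replicate number as a block, without Dux KO replicates 3 and 4 (adjusted p = 0.0318, 0.0180, 0.0452 and 0.0303), and DESeq2 on recovered reads (0.0377). By edgeR on recovered reads the adjusted p was 0.0515.

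The ratio of Bmp15 to Gdf9 was 1.66, 1.56, 2.29 and 1.14 in WT replicates 1 to 4 and 2.54, 4.55, 2.89 and 2.88 in Dux KO replicates 1 to 4. Both ligand transcripts were thus present in every pool, with Bmp15 the more abundant per length in each, and its excess was larger in all 4 Dux KO pools.

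Oosp1 and Oosp2 encode small secreted proteins known from the oocyte. They are neighbours on the reverse strand of chromosome 19, at 11667460 to 11691150 and 11647279 to 11660559 (GRCm38), 6900 bases apart. Oosp1 was the most abundant member, at 1256, 1264, 1176 and 728 FPKM in WT replicates 1 to 4. In Dux KO replicates 1 to 4 it was at 2003, 4008, 1814 and 1368 FPKM. All Dux KO pools lay above all WT pools, and the range was set by a high Dux KO replicate 2 and a low WT replicate 4. The means were 1106 ± 255 and 2298 ± 1171 FPKM (SD, n = 4), from 9317 to 61261 reads per pool. Oosp1 had a log2 fold change of 0.97 (SE 0.30, 95% interval 0.30 to 1.63, limma adjusted p = 0.0311; exact two-sided permutation p = 0.0286). The call of Oosp1 ended without WT replicate 3 (log2 fold change 1.01, adjusted p = 0.0507), without WT replicate 4 (0.78, adjusted p = 0.0919) and without Dux KO replicate 1 (0.99, adjusted p = 0.0609). Without Dux KO replicates 1 and 2 together the log2 fold change of Oosp1 was 0.54 (adjusted p = 0.158). In the authors' deposited table it was 1.06, with an adjusted p of 0.00286.

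In WT replicates 1 to 4 Oosp2 was at 79.1, 83.7, 44.7 and 57.7 FPKM, and in Dux KO replicates 1 to 4 at 87.4, 124, 85.3 and 75.3 FPKM. Dux KO replicates 1 to 3 lay above all WT pools and replicate 4 among them. Oosp2 differed by 0.50 on the log2 scale (95% interval 0.02 to 0.98; exact two-sided permutation p = 0.143). Its limma adjusted p was 0.0986, and it passed with quantile normalization and with the replicate block (adjusted p = 0.0348 and 0.0312). Oosp3, the next gene of the cluster and no member, lies 5904 bases beyond Oosp1 on the other strand. Oosp3 stood at 401, 364, 484 and 193 FPKM in WT replicates 1 to 4 and 599.7, 1494, 652 and 347 FPKM in Dux KO replicates 1 to 4. Oosp3, named for its position, differed by 0.97 on the log2 scale and did not pass (limma adjusted p = 0.0759). It passed in 5 of 21 alternatives, with equal totals, quantile normalization, the replicate block, and without Dux KO replicate 4 or replicates 3 and 4 (adjusted p = 0.0495, 0.0387, 0.0154, 0.0257 and 0.0303). Without Dux KO replicate 2 its difference was 0.59 (adjusted p = 0.17). As for Oosp1, the highest pool of Oosp3 was Dux KO replicate 2 and the lowest WT replicate 4.

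Plat encodes tissue plasminogen activator, a secreted protease whose maternal mRNA is known to be stored untranslated in the growing oocyte and translated when the oocyte matures. It lies on chromosome 8 at 22757727 to 22782844 on the forward strand. Plat stood at 4.17, 3.14, 3.35 and 4.22 FPKM in WT replicates 1 to 4 and 6.42, 5.24, 6.00 and 3.60 FPKM in Dux KO replicates 1 to 4. Dux KO replicates 1 to 3 were above all WT pools, and replicate 4 was inside the WT range. Plat differed by 0.40 on the log2 scale (95% interval -0.00 to 0.81, limma adjusted p = 0.11), from 252 to 582 reads per pool. Plat passed without Dux KO replicate 4 (0.55, adjusted p = 0.0334) and by DESeq2 on recovered reads (adjusted p = 0.0460).

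**Figure D3:**
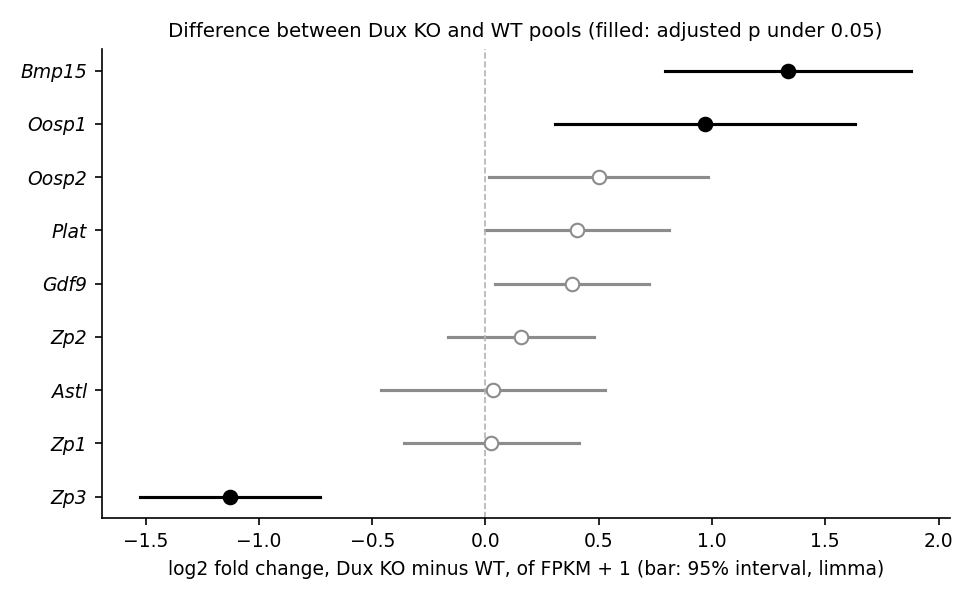
Log2 fold change of each member between Dux KO and WT on the log2(FPKM + 1) scale, with its 95% interval from limma; filled points passed at an adjusted p under 0.05. Zp3 stands alone at -1.13, Bmp15 and Oosp1 at 1.34 and 0.97, and the other 6 lie between 0.03 and 0.50.

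The members also differed in which pools stood out. In Dux KO replicate 2, 7 of 9 members were above all WT pools and Zp1 and Zp3 below all of them, where 35.0% of tested genes were above and 39.1% below. In the same pool 5 members (Zp2, Bmp15, Oosp1, Oosp2 and Astl) had their highest value of the 8 pools. Over all tested genes 23.7% had their highest value and 26.7% their lowest in that pool, more than in any other pool. Dux KO replicates 1 and 3 each had 6 of 9 members above all WT pools, where 31.2% and 27.2% of tested genes were. They had 2 and 1 members below all WT pools, where 34.2% and 30.5% of tested genes were. In Dux KO replicate 4, the pool closest to WT for Oosp1, Oosp2 and Plat, 3 members were above all WT pools (Gdf9, Bmp15 and Oosp1) and 1, Zp3, below, where 30.0% and 31.2% of tested genes were. WT replicate 4 held the lowest value of Zp2, Bmp15 and Oosp1, and of 17.9% of tested genes. Relative to the WT mean on the log2(FPKM + 1) scale, Oosp1 was higher by 0.89, 1.89, 0.75 and 0.34 in Dux KO replicates 1 to 4. The same differences for Zp3 were -0.83, -1.62, -1.01 and -1.05, so that replicate 2 was the extreme pool in both directions.

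**Figure D4:**
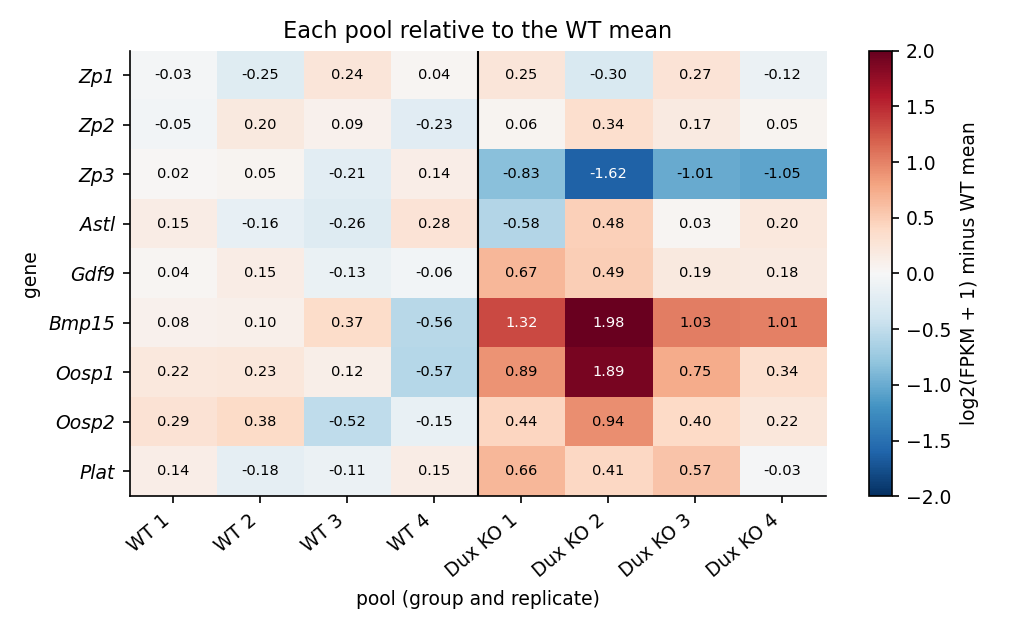
Each pool's log2(FPKM + 1) minus the WT mean for the 9 members, with WT pools left and Dux KO pools right of the line; red is higher and blue lower. Zp3 is negative in all Dux KO pools, Bmp15 is at least 1.01 in all of them, and Zp1, Astl and Plat have both signs among them.

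The 3′ untranslated regions, which hold the signals for storage and decay of maternal mRNA, were short in most members. The longest coding transcripts in GENCODE M21 gave 13 bases for Zp3, 34 for Zp1, 138 for Oosp2, 173 for Zp2, 230 for Oosp1 and 360 for Gdf9. Plat had 738, Astl 877 and Bmp15 1523 bases, so that 8 of 9 members were under the median of 1094 bases over 11348 genes. Within the last 150 bases, the cytoplasmic polyadenylation element TTTTAT or TTTTAAT was found in Gdf9, Oosp1 and Plat (1, 1 and 2 matches) and in 24.4% of all those genes. The regions of Zp3 and Zp1, at 13 and 34 bases, are too short to be set against that share.

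The other genes of the same processes were read from lists. Beside each list count stands the share over all tested genes, of which 15.5% rose and 18.1% fell (median log2 fold change -0.025). Without Dux KO replicates 1 and 2 together, calls over all genes dropped from 1933 to 353 higher and from 2249 to 447 lower. List counts in that setting are thus low for genes in general and do not single out a list. Of 12 tested genes of zona maturation, cortical granule release and the egg surface, 1 rose, none fell and 11 did not pass (median log2 fold change 0.12). Without Dux KO replicates 1 and 2 none rose, and with the replicate block, quantile normalization or equal totals 3 did. The gene that rose was Syt1, a synaptotagmin of vesicle release, whose WT pools held 0.339 to 0.654 FPKM and whose Dux KO pools held 1.12 to 1.95 FPKM (0.62 on the log2 scale, limma adjusted p = 0.00959). Cd9, the tetraspanin that eggs need to fuse with sperm, was at 138 ± 12.1 and 126 ± 23.1 FPKM. Izumo1r, which encodes JUNO, the egg receptor for sperm IZUMO1, was at 5.89 ± 2.47 and 9.07 ± 2.31 FPKM, and neither passed (limma adjusted p = 0.482 and 0.0944). Cd9 and Izumo1r were chosen after their values were seen.

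Of 16 tested receptors, SMADs and targets of GDF9 and BMP15 signalling, 7 rose, 1 fell and 8 did not pass (median 0.31). Among all tested genes 15.5% rose and 18.1% fell (median -0.025), and the list was not tested as a set. Without Dux KO replicates 1 and 2 together, 1 rose and none fell, where only 353 genes rose and 447 fell over all genes. Id2 and Id3, inhibitors of helix-loop-helix factors and known targets of BMP signalling, rose with log2 fold changes of 1.20 and 1.01 (limma adjusted p = 0.0113 and 0.00923). In WT replicates 1 to 4 Id2 stood at 22.8, 25.5, 41.6 and 14.3 FPKM, and in Dux KO replicates 1 to 4 at 51.4, 85.3, 44.8 and 54.1 FPKM, so that the groups did not overlap. Smad1, which carries BMP signals, rose from 0.931 ± 0.106 to 2.25 ± 0.288 FPKM. Acvr2a, an activin type II receptor, fell from 2.42 ± 0.266 to 1.40 ± 0.221 FPKM (-0.51 on the log2 scale, with a limma adjusted p of 0.0202). Acvr2a lost its call when WT replicate 4 or Dux KO replicate 1 was left out. Id1, another such inhibitor of the list, was at 10.3 ± 1.86 and 9.15 ± 4.09 FPKM, which did not pass (limma adjusted p = 0.497) and was chosen after its values were seen.

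Of 6 tested genes of plasminogen activation besides Plat, 3 rose and none fell (median 0.57), where 15.5% and 18.1% of all tested genes did. Without Dux KO replicates 1 and 2 together, 2 rose, where only 353 genes rose over all genes. S100a10, a plasminogen-binding partner of annexin A2, rose from 2.85 ± 1.24 to 6.73 ± 1.68 FPKM (log2 fold change 1.04). Serpine2, a serpin that inhibits plasminogen activators, rose from 4.85 ± 0.402 to 8.70 ± 0.714 FPKM (0.73). Plgrkt, a plasminogen receptor, rose from 0.359 ± 0.0870 to 1.20 ± 0.203 FPKM (0.69). Their limma adjusted p-values were 0.00964, 0.00570 and 0.00359. Plg, the substrate of tissue plasminogen activator, was not analysed here.

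Of 7 tested oocyte transcription factors, 3 rose and 1 fell (median 0.43), where 15.5% and 18.1% of all tested genes did. Without Dux KO replicates 1 and 2 together none rose or fell, where only 353 genes rose and 447 fell over all genes. Tbpl2, the oocyte form of the TATA-binding protein, stood at 2.66, 1.93, 3.25 and 1.43 FPKM in WT replicates 1 to 4 and 8.29, 16.0, 8.07 and 3.96 FPKM in Dux KO replicates 1 to 4 (1.5 on the log2 scale, limma adjusted p = 0.00742). As for Oosp1, Dux KO replicate 2 was the highest and WT replicate 4 the lowest. Lhx8 and Foxo3, a LIM homeobox factor and a forkhead factor of oocyte growth, rose by 0.80 and 0.74 on the log2 scale, and Lhx8 overlapped between the groups and lost its call when Dux KO replicate 1 was left out. Taf4b, a TFIID subunit of the germ line, fell by 0.46 on the log2 scale (limma adjusted p = 0.0460), and its call ended in 11 of 21 alternatives. Those were quantile normalization, median-of-ratios scaling, equal totals, leaving out any 1 pool but Dux KO replicate 4, and leaving out Dux KO replicates 1 and 2. Figla was not analysed here.

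Other lists of maternal genes also held genes of both directions, as did all tested genes (15.5% rose and 18.1% fell). Of 8 genes of the subcortical maternal complex, 1 rose (Zbed3, 712 ± 209 to 1255 ± 431 FPKM) and 1 fell (Padi6, 45.8 ± 5.15 to 27.0 ± 4.68 FPKM), with log2 fold changes of 0.80 and -0.75. The call of Zbed3 ended when any of WT replicates 1, 2 and 4 or Dux KO replicates 1, 2 and 3 was left out, or both Dux KO replicates 1 and 2, while that of Padi6 held in all 21 alternatives. Of 19 genes of maternal mRNA storage, deadenylation and decay, 7 rose, 3 fell and 9 did not pass (median 0.42). Without Dux KO replicates 1 and 2 together none of these 19 rose or fell, where only 353 genes rose and 447 fell over all genes. Btg4, an adaptor of the CCR4-NOT deadenylase, was at 545, 506, 359.6 and 300.045 FPKM in WT replicates 1 to 4 and 1044, 2183, 1077 and 494 FPKM in Dux KO replicates 1 to 4. Its groups overlapped (log2 fold change 1.34, limma adjusted p = 0.0195), and its call ended without WT replicate 4. Cnot6l, a catalytic deadenylase of the same complex, and Eif4e1b, an oocyte form of the cap-binding protein, rose by 1.01 and 1.10 on the log2 scale. Zar1l, a maternal RNA-binding protein, Ythdf2, a reader of N6-methyladenosine that takes part in clearing maternal mRNA, and Cnot8 fell, with log2 fold changes of -1.42, -0.98 and -0.51. Cnot8 lost its call in 7 of 21 alternatives, 3 of which left out a single pool (WT replicate 3, WT replicate 4 or Dux KO replicate 1). No test between these lists was made.

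**Figure D5:**
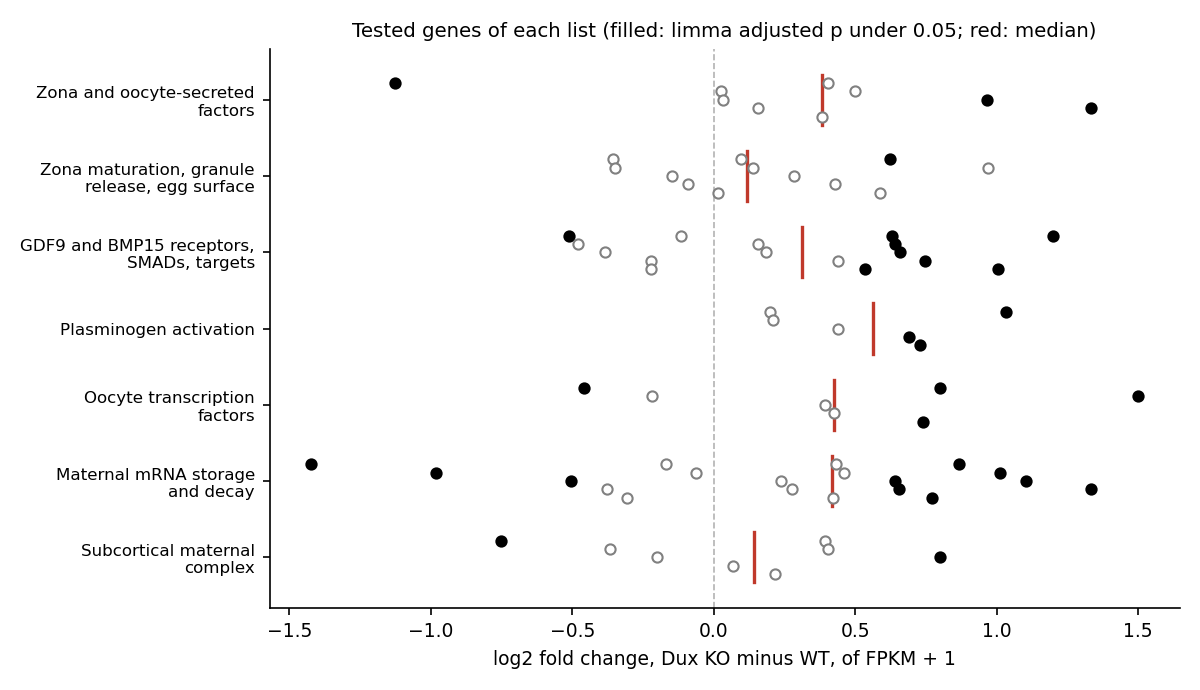
Log2 fold change between Dux KO and WT of every tested gene of 7 lists, filled where limma's adjusted p was under 0.05, with the list's median in red. Genes lie on both sides of 0 in each list but that of plasminogen activation. The medians run from 0.12 to 0.57, against -0.025 over all tested genes.

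Of 14 markers of cumulus and granulosa cells 7 had a row, with a summed level of 45.1 to 55.2 FPKM in WT and 44.1 to 66.5 FPKM in Dux KO; the cumulus markers Has2, Ptgs2 and Ptx3 were not analysed here. Amhr2 and Nr5a2, the receptor of anti-Müllerian hormone and a nuclear receptor, made up most of that sum, at 22.9 and 18.8 FPKM in WT and 19.5 and 17.3 FPKM in Dux KO. The other markers with a row had WT means from 0.420 (Cyp19a1) to 3.27 FPKM (Tnfaip6). The sum thus mainly follows Amhr2 and Nr5a2 and does not measure an amount of cumulus or granulosa cells. Whether their transcripts came from such cells or from the embryo was not tested. Inha, a granulosa inhibin subunit, was at 0.0563 to 2.98 FPKM in WT and, in Dux KO replicates 1 to 4, at 1.21, 9.18, 0.869 and 16.0 FPKM. Cyp11a1, a steroidogenic enzyme, reached 16.0 FPKM in Dux KO replicate 2 but no more than 2.61 FPKM elsewhere. Cyp19a1, the aromatase gene, rose from 0.420 ± 0.147 to 1.06 ± 0.311 FPKM, the only called gene of its list. Star, a steroidogenic cholesterol carrier, was highest of the 8 pools in Dux KO replicate 2 (4.78 FPKM), as were Cyp11a1, Cyp19a1 and the oviduct markers Ovgp1 and Dynlrb2 (13.3 FPKM). That was also the pool in which Zp2, Bmp15, Oosp1, Oosp2 and Astl were highest. It held the highest value of 23.7% of all tested genes, more than any other pool. Inha was highest in Dux KO replicate 4, and Tnfaip6, Amhr2 and Nr5a2 in WT pools. Of these markers all but Cyp19a1, Epcam and Cd52 were chosen after their values were seen. Of 7 oviduct markers 3 had a row; Ovgp1, oviductin, was at 1.74 to 11.5 FPKM in WT and 3.07 to 22.0 FPKM in Dux KO, highest in Dux KO replicate 2, and Epcam fell from 132 ± 11.4 to 90.4 ± 19.5 FPKM, a call that ended with equal totals and when WT replicate 1, 2 or 4 was left out. Of 8 blood markers 1 had a row (Cd52, 3.26 ± 1.40 and 3.39 ± 1.88 FPKM), and the 8 sperm markers were not analysed here. The part of these cells in the values of Plat and the other members was not tested.

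The genes whose profile over the 8 pools was most like each called member were found by the mean absolute distance of centred log2(FPKM + 1) values. The search ran among 5614 other genes at 5 FPKM or more on average. Genes without a symbol and predicted gene models (Gm, Rik, AC, AL, BC and AI names) were left out, so closer ones may exist. For Zp3 they were Rpp40, a subunit of ribonuclease P, Fam45a and Plcd4, a phospholipase C, at distances of 0.085, 0.088 and 0.112 (median over all genes 0.486). Rpp40 fell from 66.8 ± 2.35 to 30.9 ± 6.21 FPKM. For Bmp15 they were Nrg4, which encodes neuregulin 4, Tmem243 and Ptprr, a receptor tyrosine phosphatase, at 0.113, 0.125 and 0.13 (median 0.773). For Oosp1 they were C87414, Suclg2, a subunit of succinyl-CoA ligase, and Smim14, at 0.094, 0.111 and 0.111 (median 0.638). Each of the 9 was called in the direction of its member, which the choice by likeness favours, and no other member was among them.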

How the data were processed

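The authors deposited, per the file headers, 1 table of genes in FPKM and 1 of repeats in FPM (a signal per repeat), each with a mean count, a log2 fold change and an adjusted p-value. Per the submitters' processing notes, Trimmomatic 0.32, STAR 2.6.1a, SAMtools 1.7 and GRCm38 (mm10) were used; read counter, strand setting and test were not given in the sources used here. The authors' mean count per mean FPKM and exonic kilobase (GENCODE M21) was 13.524 for all 9 members, so levels compare per length of all annotated exons. For Plat that length was 6241 bases, while its longest coding transcript had 2525, so its level would be higher per base of that transcript. For Zp3, Bmp15 and Oosp1 the 2 lengths were the same. Within each library the values of a gene were whole multiples of 1 step (100% whole within 0.05), which gave reads. The steps of 1 read do not follow the totals of reads and are nearly the same in both tables, so libraries appear scaled by size factors and not to equal totals.

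All 8 pools entered limma 3.58.1 (R 4.3.3; trend, robust, no covariate) on log2(FPKM + 1), after dropping genes whose mean was under 0.5 FPKM. Folds of low genes are understated on this scale. Single values were also tested by exact permutation (SciPy 1.17.1). The analyses of recovered reads with edgeR 4.0.16 and DESeq2 1.42.0, those without 2 Dux KO pools and that with equal totals of gene reads per pool were chosen after seeing the data. On simulated data (12452 genes) limma called 81.6% of genes set 1 lower and 77.6% of genes set 1 higher on the log2 scale. It called 100% of those set 2 lower or higher, with 3 false calls. The simulated pools were independent draws with 1 dispersion for all genes, and only 50 well-covered genes were changed per setting. Pools that differ as a whole, such as Dux KO replicate 2, were not simulated, so these shares and false calls need not hold for the real pools. The members and lists were chosen with earlier results of these data known. All members were named, and from each list at most 3 called genes of largest change in each direction, or, with none called, the 2 of highest level; other names are marked.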

Additional observations from a re-analysis of the deposited data

Results flagged for a closer look

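Oosp1 in WT replicate 4 stood apart from the other WT pools at 728 FPKM, against 1176 to 1264 FPKM in replicates 1 to 3, by a gap of 0.836 of the range of the group, above the 95% critical value of Dixon's test. Of 18 groups of values checked, 9 members in 2 groups, this was 1, and chance flags about 1 in 20.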

How the results depend on the processing

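Of 187 values of the 9 members under the alternatives, 164 kept their direction and side of the threshold, and those of Zp2, Zp3 and Bmp15 all did. The count of 3 members called was 5 with quantile normalization, 5 with the replicate block and 5 by DESeq2, and 2 to 4 with 1 pool left out. The count of 4182 genes called was 2527 to 4045 with 1 pool left out (2527 for WT replicate 4, 2686 for Dux KO replicate 1) and 800 when Dux KO replicates 1 and 2 were left out together. Higher genes numbered 1032 against 1880 lower ones at a mean of 5 FPKM or more, where 1933 and 2249 were called at the minimum of 0.5 FPKM. The replicate numbers are shared by the groups, but same-numbered pools did not all deviate together (correlations -0.115 to 0.328) and not every pool correlated best with its own number. With the replicate block 4732 genes were called, and of the members it changed the calls of Gdf9 and Oosp2 only. Zp1 ran from -0.057 to 0.135 with 1 pool left out and was at -0.026 without Dux KO replicates 3 and 4 together. Astl ran from -0.115 to 0.239 with 1 pool left out, and was at -0.047 with quantile normalization and -0.053 without Dux KO replicates 3 and 4. Cd52 ran from -0.24 to 0.237 with 1 pool left out, and those other 2 settings gave -0.027 and -0.297. The cause of these reversals was not tested. At a minimum of 5 FPKM, Astl and Plat gave no value. Astl had the fewest reads, and its SE (0.23) was under those of Bmp15 and Oosp1 (0.25 and 0.30). These SEs are on the log2(FPKM + 1) scale, which compresses low values, so they do not rank how precisely the 3 genes were measured.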
